A study of Drosophila melanogaster with 2 samples.

Results

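Cytosolic ribosomal protein genes were examined in Drosophila melanogaster S2 cells, an established line derived from fly embryos with features of macrophage-like blood cells. A gene was a member if its current symbol begins with RpL or RpS and a digit or with RpLP, or is sta, and if a probe set was assigned to it alone. A probe set is a group of short probes that gives 1 value per array. The rule found 41 genes with 47 probe sets, of 11983 genes with 13647 such probe sets. The RefSeq gene table lists 93 genes with such symbols, and the other 52, among them sta, RpS3, RpS6 and RpL22, were not analysed here. All 41 genes were taken by symbol and not by signal, although the members were chosen with earlier results of these data known.

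The series holds 2 Affymetrix Drosophila Genome 2.0 arrays of 1 group, replicates 1 and 2. Both are of S2 cells soaked with double-stranded RNA against GFP, a jellyfish protein absent from the fly genome, for 8 days in 2 rounds of 4 days. The labels give the treatment as done in duplicate without saying whether the cultures were grown apart, so the spread between the arrays may be technical. No other condition was analysed here, so no effect of the double-stranded RNA could be measured. With 1 group of 2 arrays no test between conditions exists, and all values below are descriptions with n = 2.

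The ribosome of the cytosol is built from a small subunit, which reads the mRNA, and a large subunit, which forms the peptide bond. Each protein is needed in about 1 copy per ribosome, apart from the acidic proteins of the stalk, and most are made from a single gene in flies. Flies with 1 working copy of many of these genes show the Minute phenotype of slow growth and thin bristles. Several proteins also have a second gene copy, and many of those copies are known mainly from the germline or testis. In the data, signals of the standard genes lay at the top of the arrays, and several of the second copies were at background.

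Signals are linear intensities as deposited, and they ran from 0.128 to 21170 on replicate 1 and from 0.249 to 24533 on replicate 2. The background limit, 146 on replicate 1 and 136 on replicate 2, was the 95th percentile of the signals of 112 smell and taste receptor genes (125 probe sets). A gene was called detected if any of its probe sets was above the limit on both arrays. The macrophage-like label was checked with 7 hemocyte markers, of which 6 were detected, from eater at 233 and 229 on replicates 1 and 2 to srp at 8547 and 8747. The exception was NimC1, at 96.6 and 127. Of 3 testis markers none was detected, with at most 49.9 and 28.8 on the 2 arrays. Of 4 measured ovary and germline markers osk and bam were detected, and of 3 neuron markers elav was. The ratio of 3′ to 5′ signal was 1.06 and 1.09 for actin and 2.46 and 2.29 for GAPDH on replicates 1 and 2.

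Of the 41 ribosomal protein genes 35 were detected, or 85.4%, where 49.1% of all genes were. A signal over 10000 on both arrays was found for 29 of the 41 (70.7%), compared with 0.551% of all genes. These 29 made up 43.9% of the 66 genes of the arrays above that level. Of the 29, 14 take their level from a probe set that can cross-hybridise, as described below. The same count over all genes was not made. The median level of the 41 genes was 15400 on replicate 1 and 17842 on replicate 2, and that of all genes was 140 and 145. Probe sets differ in how strongly they respond, so the order of 2 signals is not the order of 2 mRNA amounts. The median over many probe sets describes the group.

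**Figure D1:**
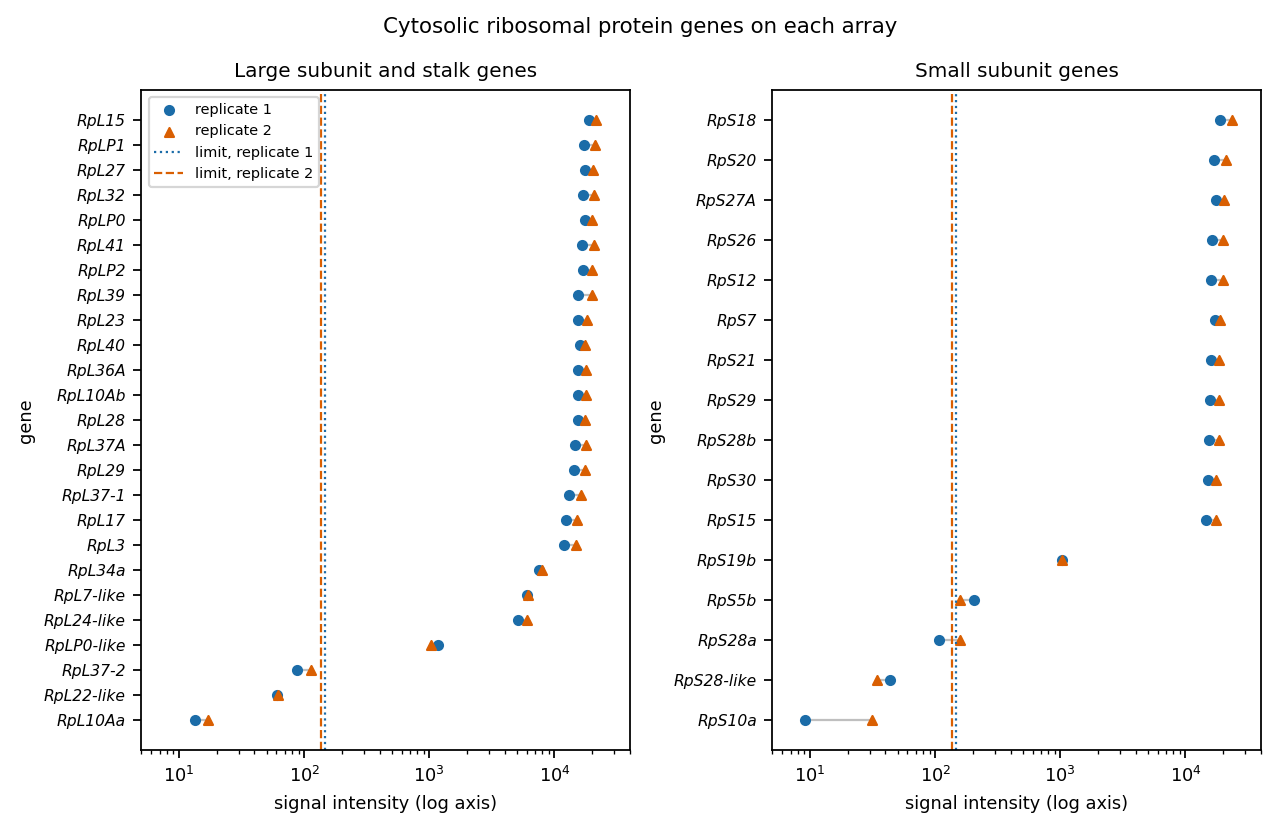
Signal intensity (log axis) of each ribosomal protein gene, taken from its probe set with the highest mean, on replicate 1 (circles) and replicate 2 (triangles). Vertical lines mark the background limits of 146 and 136. Most genes sit between 11954 and 23397, and 6 genes are not above the limit on both arrays.

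Among genes with large subunit symbols outside the stalk, 19 of 22 were detected and 15 had signals over 10000 on both arrays. The 19 include RpL7-like, RpL24-like and RpLP0-like, relatives of assembly proteins described below, which also count among the 41 genes. Of the 16 small subunit genes 13 were detected and 11 were over 10000. Over the 29 bright genes of both subunits the signals ran from 11954 to 18991 on replicate 1, with a median of 15852. On replicate 2 they ran from 14880 to 23397, with a median of 18563. The highest was 1.59 times the lowest on replicate 1 and 1.57 times on replicate 2, a range cut below by the choice of genes over 10000. Whether probes this bright still respond in proportion to the RNA was not tested.

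The stalk is the flexible arm of the large subunit that recruits elongation factors, and its 3 genes were all bright. RpLP0, which anchors the stalk, had signals of 17519 and 20076 on replicates 1 and 2. RpLP1 and RpLP2 encode the acidic proteins bound to it. RpLP1 had 17312 and 21038, and RpLP2 had 16816 and 20021. All 3 were higher on replicate 2 as deposited, where 49.5% of all detected genes were. Of the 37 bright genes outside the ribosomal protein set, 34 were. After median scaling all 3 stalk genes were still higher on replicate 2, where 37.05% of all detected genes were. After quantile normalization RpLP0 was lower, with a log2 difference of -0.0588. RpLP1 and RpLP2 were then higher, by 0.0212 and 0.0071, where 47.4% of all detected genes were. Scaled to the hybridisation controls, described below, all 3 were lower, and only 7.95% of all detected genes were higher. Their log2 differences were then -0.1001 for RpLP0, -0.0155 for RpLP1 and -0.0450 for RpLP2.

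Ubiquitin is a small protein attached to others as a tag, and 2 ribosomal proteins are made as fusions with it. RpL40, a large subunit protein, had signals of 16006 and 17618. RpS27A, its small subunit counterpart, had 17628 and 20262. RpS30 is made as a fusion with a ubiquitin-like protein and had 15190 and 17532 at its brighter probe set. All 3 fusion genes were well above the limit on both arrays.

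By the mean of the 2 arrays, the brightest 3 probe sets of the large subunit outside the stalk belonged to RpL15, RpL27 and RpL32. RpL15 had signals of 18767 and 21300. RpL27 had 17468 and 20447. RpL32, often used as a reference gene in flies under the name rp49, had 17037 and 20863. RpL41, which encodes one of the shortest proteins of the ribosome, had 16465 and 20680. RpL39, which encodes a short protein that lies along the exit tunnel for the new peptide chain, had 15533 and 19824. All 5 were higher on replicate 2 as deposited, where 49.5% of all detected genes were. RpL39 and RpL41 were among the largest differences between the arrays, given below. For RpL15, RpL27 and RpL32 the direction depended on how the arrays were scaled.

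In the small subunit the brightest 3 probe sets by that mean were those of RpS18, RpS20 and RpS27A. RpS18, which lies in the head of the subunit, had 18991 and 23397, the highest values of any ribosomal protein gene on each array. RpS20, also a protein of the head, had 17054 and 21016. RpS26, at the exit channel of the mRNA, had 16318 and 20079. RpS12, a protein that fly genetics ties to the competition between Minute cells and their neighbours, had 16100 and 19928. RpS21, known as a fly tumour suppressor gene under the name oho23B, had 15852 and 18563. RpS21 was the only one measured of 12 genes listed as classic Minute or other named loci. All of these genes were higher on replicate 2 as deposited, where 49.5% of all detected genes were. Scaled to the hybridisation controls, which takes the same amount from every log2 difference, only 7.95% of all detected genes were higher. RpS27A and RpS21 were then lower on replicate 2, with log2 differences of -0.0957 and -0.0689. Under that scaling RpS18, RpS20, RpS26 and RpS12 were higher on replicate 2, by 0.0026 to 0.0111. After quantile normalization 47.4% of all detected genes were higher. RpS27A and RpS21 were at -0.0666 and -0.0243, and the other 4 genes at 0.0361 to 0.0681.

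The bright genes with the lowest means were of the large subunit. RpL3, a protein close to the peptidyl transferase centre, had 11954 and 14880 at its brightest probe set. RpL17 had 12339 and 15267, and RpL37-1 had 13007 and 16419. In the small subunit the bright gene with the lowest mean of the 2 arrays was RpS15, at 14508 and 17644, although RpS30 was lower on replicate 2. These were above 10000 on both arrays because the bright genes were chosen by that level.

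Below them were 6 detected genes with lower signals. Among these, 3 carry "-like" names and are relatives of yeast proteins that assemble the large subunit and leave before it is mature. RpL7-like had 6085 on replicate 1 and 6126 on replicate 2. RpL24-like had 5101 and 5993. RpLP0-like, whose synonyms in the gene table include MRT4, the yeast name, had 1173 and 1037, and was the only one of the 3 that was lower on replicate 2 as deposited. Each of the 3 was above its limit on both arrays, and none reached 10000.

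The other detected genes below 10000 are copies of paralogue pairs. RpL34a had 7552 and 7996, and its partner RpL34b was not analysed here. RpS19b, a copy known mostly from the germline, had 1024 and 1038, and its partner RpS19a was not analysed here. RpS5b, an ovary-enriched copy, had 206 and 157, the lowest of all detected members, and its partner RpS5a was not analysed here. So RpS19b was clear of the limit on both arrays, while RpS5b was close to it on replicate 2.

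The 6 genes that were not detected were all second copies or a "-like" gene. RpL10Aa had 13.3 and 17.1, while its partner RpL10Ab had 15389 and 17967. RpL37-2, listed in the gene table also as RpL37b, had 86.9 and 114, while its partner RpL37-1 was among the bright genes. RpS28a had 108 and 158, below the limit on replicate 1 and above it on replicate 2, and RpS28-like had 43.3 and 34.1. The third gene of that family, RpS28b, had 15400 and 18433. In each of these 3 families 1 copy was over 10000 on both arrays and the others were not detected.

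RpS10a and RpL22-like completed the set of genes that were not detected, and neither partner was analysed here. RpS10a had 9.11 and 31.2. RpL22-like, a copy best known from the fly testis, had 60.6 and 62.1. Just inside the background limit lay RpS5b, at 206 and 157, and just outside it RpS28a, at 108 and 158. On replicate 2 these 2 genes had nearly equal signals.

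A list of 8 copies described as enriched in germline or testis, RpL24-like included, had 3 detected members, or 37.5%, against 49.1% of all genes. Those 3 were RpS5b, RpS19b and RpL24-like. RpL24-like is better described as an assembly factor, so the 2 detected copies of standard ribosomal proteins were RpS5b and RpS19b. The testis markers dj, bb8 and Mst84Da were not detected on the same arrays, while the germline marker bam had 4589 and 3998 and osk had 220.1 and 226. The germline marker vas was not detected, at 31.0 and 51.1. Whether the signals of RpS5b and RpS19b go with those of bam and osk was not tested.

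Of the 41 genes 37 had 1 probe set and 4 had more. Of their 47 probe sets 39 were above the limit on both arrays, or 83.0%, where 46.1% of all probe sets with 1 named gene were. RpL3 had 3 detected probe sets with signals of 11954 and 14880, of 2713 and 3585, and of 254 and 263 on replicates 1 and 2. RpS29, a zinc-binding protein of the small subunit head, had 15741 and 18510 at one, 12171 and 15157 at the next, and 5.16 and 13.4 at the last. RpS30 had a weaker probe set at 410 and 529. RpS7 had 17069 and 18793 at one probe set and 135 and 178 at the other, which failed the limit on replicate 1. Within these 4 genes the signal therefore depended on the probe set by over 10-fold, and the transcript regions that the weaker ones match were not examined. The brightest probe sets of RpL3, RpS30 and RpS7 are among 14 of the 47 whose names end in _s_at or _x_at. RpL15, RpL32, RpL41 and RpS18 also take their levels from such probe sets. These can cross-hybridise, and whether their bright signals come from the named gene alone was not tested.

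Only 3 further probe sets were assigned to a ribosomal protein gene together with another gene, and they were left out of the counts. The probe set shared by RpLP0 and euc had 30.0 and 52.7. The one shared by RpL28 and snoRNA:Or-CD12 had 97.0 and 92.1. The one shared by RpL7-like and CG34164 had 77.6 and 150.0, above the limit on replicate 2 alone.

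Many fly ribosomal protein genes carry genes for small nucleolar RNAs, which guide chemical modification of ribosomal RNA, inside their introns. Of the 41 genes 10 (24.4%) had at least 1 such gene inside their annotated span in the RefSeq table, with 29 in all. Over all measured genes in that table the share was 0.597%, or 71 of 11899. RpS7 held 7, RpL28 held 5, and RpL3 and RpL17 held 4 each. All 10 of these host genes were over 10000 on both arrays. Genes next to the bright ribosomal protein genes on the chromosome were detected in 33 of 52 measured cases (63.5%), and neighbours of all detected genes in 67.6%.

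Other genes of ribosome production were compared as groups. All 69 measured mitochondrial ribosomal protein genes, whose products translate the mitochondrial genome, were detected. Their signals ran from 181 to 3462 on replicate 1, with a median of 1047, and from 274 to 3992 on replicate 2, with a median of 1069. None of the 69 reached 10000, where 29 of the 41 cytosolic genes did on both arrays. Of the cytosolic set, RpLP0-like and RpS19b had signals within the mitochondrial range on both arrays.

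All 18 measured genes of ribosome biogenesis were detected as well, with signals from 276 to 6675 on replicate 1 and from 334 to 7012 on replicate 2. Fib, the methyltransferase of ribosomal RNA known as fibrillarin, had 2747 and 2541. Nop56, a core protein of the same particles, had 6559 and 7012. Nop60B, which makes pseudouridine in ribosomal RNA, had 2221 and 2527. The nucleolar protein gene Nopp140 had 3898 and 3893. The nucleolar genes mod and Nnp-1 had 6171 and 6461, and 4652 and 4489. None of the 18 was over 10000.

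Among 6 measured factors that work at the cytosolic ribosome, 5 were detected. Rack1, a scaffold protein that sits on the small subunit head, had 13853 and 15601. eEF5, the translation factor also called eIF5A, had 16718 and 19693. These were the 2 of the 6 over 10000, the level of most ribosomal protein genes. The signals of bic, a subunit of the nascent chain associated complex, were 247 and 215. Sec61alpha, the channel through which new chains enter the endoplasmic reticulum, had 5041 and 4901. The kinase gene Gcn2, which responds to stalled translation, had 710 and 745. eEF1alpha2, an elongation factor copy, was not detected at 57.1 and 76.9. Of the genes that respond to loss of ribosomal proteins, 3 of 5 were measured and all 3 were detected. Irbp18, the partner of the transcription factor Xrp1, had 1277 and 1542, p53 had 1031 and 1268, and mask had 2486 and 2256.

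**Figure D2:**
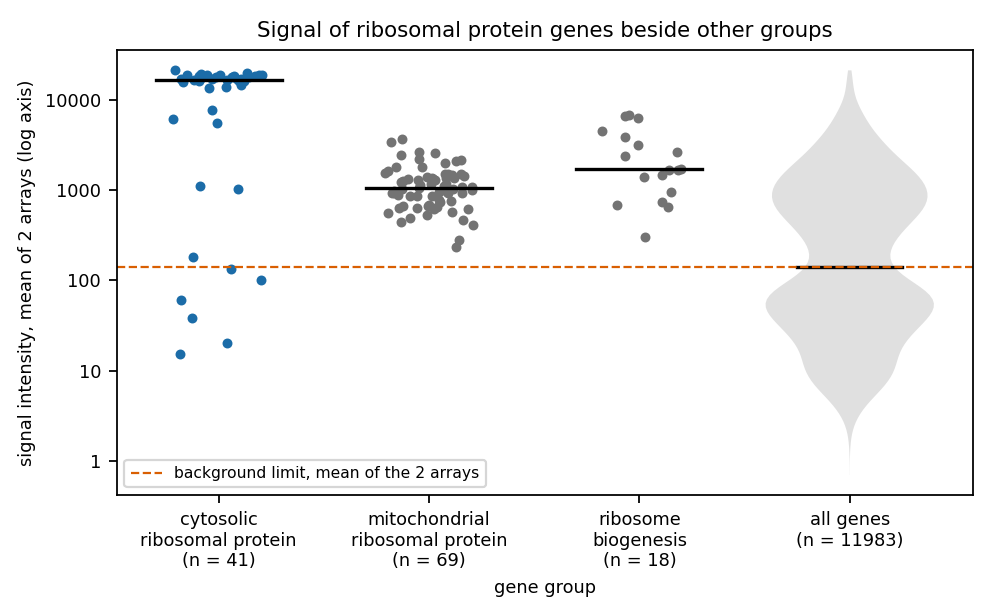
Mean signal of the 2 arrays (log axis) for the 41 cytosolic ribosomal protein genes, 69 mitochondrial ribosomal protein genes, 18 ribosome biogenesis genes and, as a shaded distribution, all 11983 genes. Points are genes, black lines are medians and the dashed line is the mean background limit. The cytosolic genes gather over 10000, with a tail of copies that reaches below the limit.

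The duplicate arrays were then compared. Of the 35 detected ribosomal protein genes, 33 were higher on replicate 2 as deposited, where 49.5% of detected genes were, but 18 were after quantile normalization and 9 when the arrays were scaled to the hybridisation controls. Under those 2 scalings 47.4% and 7.95% of all detected genes were higher on replicate 2. The median log2 difference, replicate 2 minus replicate 1, was 0.23 with an SD of 0.15 over the 35 genes, or 1.18-fold, and -0.0022 over all 5886 detected genes with an SD of 0.22. After quantile normalization the median of the 35 genes was 0.0056, and scaled to the hybridisation controls it was -0.06. None of the 35 differed by over 2-fold, and 0.153% of detected genes did. Genes of both subunits, taken by symbol, gave similar medians. Over the 19 outside the stalk with large subunit symbols, RpL7-like, RpL24-like and RpLP0-like included, it was 0.23, and 18 were higher as deposited. Over the 13 small subunit genes it was 0.23, and 12 were higher.

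The difference as deposited was seen among the bright genes. All 29 genes over 10000 were higher on replicate 2 as deposited, by 0.14 to 0.35 with a median of 0.26 (1.20-fold) and an SD of 0.06, but 15 of 29 were after quantile normalization and 9 after scaling to the hybridisation controls. The other 37 genes of the arrays over 10000 had a median of 0.16 with an SD of 0.11, and 34 of them were higher as deposited. After quantile normalization 11 of these 37 were higher, with a median of -0.0088, against 0.0071 for the 29 ribosomal protein genes. Scaled to the hybridisation controls 1 of the 37 was, with a median of -0.14, against -0.04 for the 29. Median scaling, which sets the medians of the 2 arrays equal, left all 29 ribosomal protein genes higher, with a median of 0.20. It left 29 of the 37 other genes higher, with a median of 0.10. For other detected genes the median was 0.01 with mean signals up to 1000, -0.03 from 1000 to 5000 and 0.0088 from 5000 to 10000. Among the 6 detected ribosomal protein genes under 10000, 4 were higher on replicate 2 as deposited and the median was 0.01.

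**Figure D3:**
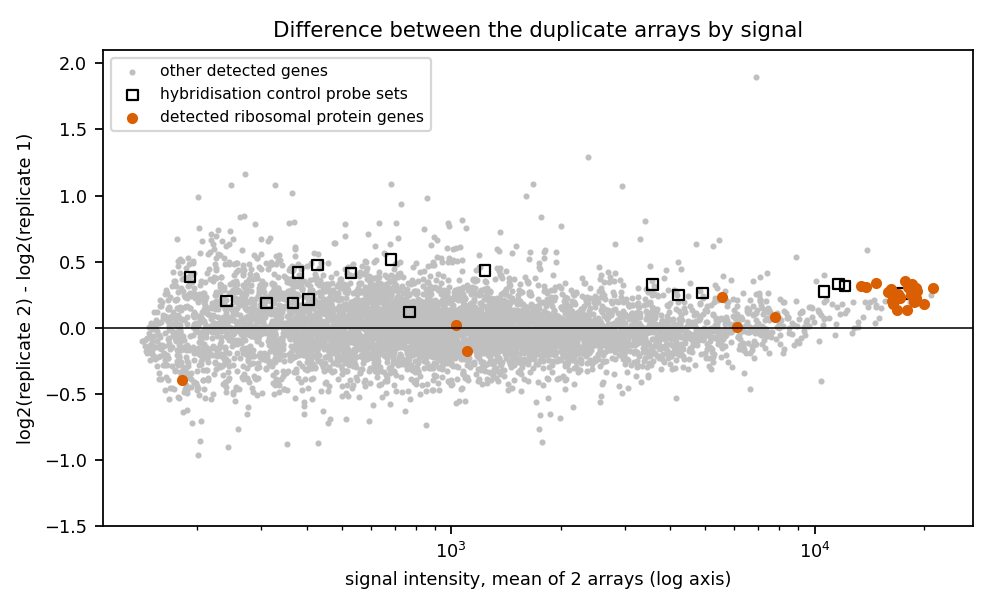
Log2 difference between the arrays as deposited (replicate 2 minus replicate 1) against mean signal (log axis) for detected ribosomal protein genes (filled circles), other detected genes (grey) and 18 hybridisation control probe sets (squares). The 29 brightest ribosomal protein genes lie between 0.14 and 0.35 as deposited. Their median is 0.26 as deposited, 0.20 after median scaling, 0.0071 after quantile normalization and -0.04 when scaled to the controls.

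The 18 hybridisation control probe sets match bacterial and phage RNAs that are added to the sample before hybridisation, and their signals moved in the same direction. All 18 were higher on replicate 2, by 0.12 to 0.52 with a median of 0.30. With the arrays scaled to those controls the median over all detected genes moved to -0.30, and that of the 35 ribosomal protein genes to -0.06. That scaling shifts every log2 difference by the same amount, so it could not change which of the 2 medians was higher. Under quantile normalization the medians were 0.0056 and -0.0092. The part of the control signals in the ribosomal protein result was not tested. Of the mitochondrial ribosomal protein genes 33 of 69 were higher on replicate 2 as deposited, with a median of -0.0094. Of the biogenesis genes 8 of 18 were, with a median of -0.0088.

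**Figure D4:**
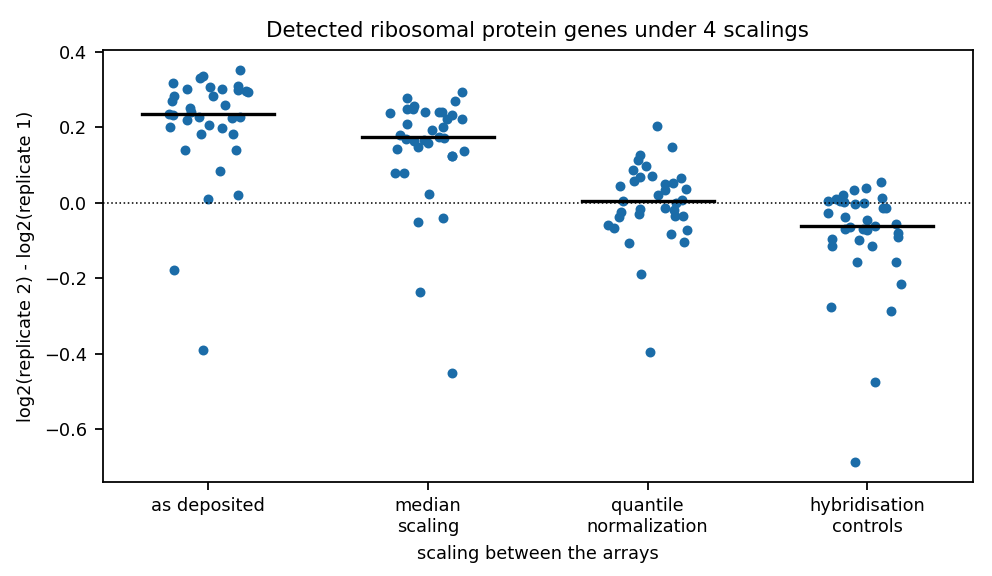
Log2 difference (replicate 2 minus replicate 1) of the 35 detected ribosomal protein genes under 4 scalings of the arrays, with 1 point per gene and black lines for the medians. The median is 0.23 as deposited, 0.17 after median scaling, 0.0056 after quantile normalization and -0.06 when scaled to the hybridisation controls.

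The 10 largest differences between the arrays over all 41 genes as deposited included 5 genes that were not detected, among them RpS10a at 1.78 and RpS28a at 0.55. The detected genes among the 10 were RpS5b, which was lower on replicate 2 by -0.39, and RpL39 (0.35), RpL37-1 (0.34), RpL41 (0.33) and RpL3 (0.32), which were higher. The 2 detected genes that were lower on replicate 2 as deposited were RpS5b and RpLP0-like (-0.18). Both were also lower after quantile normalization. They were lower after median scaling and when scaled to the hybridisation controls too. Those 2 scalings lowered every log2 difference by a constant, so neither could have made a lower gene higher. RpL24-like, at 0.23 as deposited, was still higher on replicate 2 by 0.20 after quantile normalization but was at -0.06 when scaled to the controls.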

How the data were processed

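RNA from 2 replicate samples of S2 cells was hybridised to 1 array each. Per the labels' protocols, RNA was primed from poly(A) tails, amplified and biotin labelled. The values the authors deposited are linear intensities, 1 for each probe set on an array. How they were summarised, scaled or filtered is not stated in those labels. Arrays give no counts, so precision is limited by their number.

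Of 18952 probe sets, 13647 had 1 gene in the platform annotation, 402 had several and 4903 had no row. Symbols were updated through gene IDs in a RefSeq table (release 6 assembly), which held 11894 of 11983 genes; 89 kept the annotation's symbol. That table's coordinates served only to find neighbours and nested genes, since no build is named for the array. A gene's level is its probe set with the highest mean. Signals were floored at 1 before taking log2. Python 3.11.15, numpy 2.4.6 and pandas 2.3.3 were used, and the functions were tested on simulated data.

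No test was made, since there is 1 group. The members and lists were chosen with earlier results of these data known. Values were given for stalk and ubiquitin-fusion genes, RpL32, paralogue families, members that were not detected or had discordant probe sets, the 10 largest differences, the 3 highest and 3 lowest detected members of each subunit, and the first 6 measured genes of the biogenesis and ribosome factor lists. The naming rule covered the other lists too, but mitochondrial genes and most markers are given as counts or ranges. RpL17, RpL39, RpL41, RpS12, RpS15, RpS20, RpS21 and RpS26, where that rule did not name them, were picked with their values in view. Other limits, probe set rules, floors and scalings were tried.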

Additional observations from a re-analysis of the deposited data

How the results depend on the processing

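Detection of the ribosomal protein genes was 35 of 41, where 49.1% of all genes were detected. It was 34 with the 99th percentile limit (43.8% of all genes) and 36 with the 90th (51.6%). The highest of 50 control probe sets as the limit gave 37 (55.5% of all genes). When every probe set had to pass, 33 were detected (46.6% of all genes). Leaving out 1 array gave 35 to 36 (49.7% to 50.6% of all genes). Without probe sets whose names end in _x_at or _s_at, which can cross-hybridise, 30 members remained and 23 were detected (46.3% of all remaining genes). Of these 23, 21 were higher on replicate 2 as deposited, where 49.9% of all detected genes were. The difference between the arrays depended on the scaling. After quantile normalization 18 of 35 genes were higher on replicate 2 (47.4% of all detected genes were) and the median log2 difference was 0.0056. That method makes the signal distributions of the arrays equal, and the ribosomal protein genes made up 43.9% of the genes over 10000. Whether that share bears on the result was not tested. Scaled to the hybridisation controls, a setting chosen after seeing the data, 9 of 35 were higher and the median was -0.06291, with 7.95% of all detected genes higher. Median scaling gave 31 of 35 and 0.17, with 37.05% of all detected genes higher. Floors of 16 or at the background limit left both values as they were. They could not change them, since the level of every detected member was above the limit on both arrays. The median over all probe sets of a gene gave 33 and 0.26. No paired analysis was possible because there is a single group.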
